A study of Carassius auratus with 6 samples.

Results

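The genes described here encode the subunits and single-chain factors that start protein synthesis, measured in the liver of crucian carp (Carassius auratus) after 12 h of low oxygen. They are the rows of the expression table whose gene name, ignoring case, begins with eif1, eif2, eif3, eif4a, eif4b, eif4g, eif4h, eif5 or eif6, without the eif2ak kinases. This rule found 126 of 47544 rows. The hypoxia group, labelled H12h, was 3 liver libraries from wild-type fish under hypoxia stress, and the control group, labelled N, was 3 liver libraries from wild-type fish. Age, sex and the oxygen level are not given in the labels. The labels number the replicates but do not say that each is a separate fish, so p-values measure the spread between these libraries, which may be technical. Crucian carp carries a duplicated genome, and every copy of a factor is a row of its own, given below by name and gene identifier.

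Initiation begins when the GTPase eIF2 brings the initiator tRNA to the small ribosomal subunit together with eIF1, eIF1A, eIF5 and the large scaffold eIF3. The helicase eIF4A, its partners eIF4B and eIF4H and the scaffold eIF4G open the messenger near its cap so that this complex can be loaded and can scan for the start codon. When the start codon is met, eIF5 makes eIF2 hydrolyse its GTP, eIF5B joins the large subunit, and eIF2B reloads eIF2 with GTP. Phosphorylation of the alpha subunit of eIF2 blocks eIF2B and is the best known way in which stressed cells, among them cells short of oxygen, lower protein synthesis. That control acts on the protein and is not seen in RNA levels.

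Recovered reads per library lay between 15734847 and 22782649, and levels are normalized counts, that is reads divided by a size factor per library and not by gene length. Levels of different genes are therefore not compared, and shares between copies are shares of reads. Control replicate 2 stood apart from its group: 12.3% of tested genes there lay at least 4-fold from the mean of the other controls on the log2 scale, against 2.97% to 7.34% in each other library, and results that rest on it are given with and without it. Hepatocyte marker genes made up 8.07% to 11.3% of all normalized counts after hypoxia and 7.12% to 10.9% in controls. Of 24 such genes tested 3 fell and 0 rose, where 0.417% of all tested genes fell and 1.83% rose. Exocrine pancreas markers, which fish liver can carry, made up 0.27% to 1.17% after hypoxia and 0.0018% to 0.68% in controls. Vitellogenin genes, which encode the egg yolk precursor, summed to 173 to 1694 after hypoxia, against 73.1, 113 and 28125 in controls, with the highest value in control replicate 2. Endothelium was the only one of the 8 marker sets whose summed counts did not overlap, at 920.3 to 1836 after hypoxia and 316 to 613 in controls. Of all gene names summed over copies 28.4% did not overlap. Of the 10 endothelial genes 2 rose and 0 fell. Red cell, macrophage, lymphocyte and bile duct markers overlapped between the groups, with 0 genes called. The part of these differences in the results below was not tested. In bulk tissue, fewer cells of a type and less RNA per cell cannot be told apart.

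For most copies the estimated change was less than 2-fold, and few copies passed the test. Of the 126 copies, 124 had a mean of at least 1 and were tested. Changes are hypoxia minus control on a log2 scale after adding 1 to each value, which makes the change of low genes smaller. They come from limma's moderated test over all 41045 genes with Benjamini-Hochberg adjustment, and an adjusted p under 0.05 is called a rise or a fall. By this test 1 copy rose and 2 fell, against a background of 1.83% of all tested genes that rose and 0.417% that fell. The unadjusted p was under 0.05 for 16 copies, against 18.6% of all tested genes. The median change over the tested copies was -0.14, against 0.00 over all tested genes. The estimate was above 0 for 44 copies (35.5%) and below 0 for 80, where 50.2% of all tested genes were above 0. It was smaller than 1 in either direction for 112 of the 124 copies (90.3%), against 73.3% of all genes, and the median SE was 0.29 for the copies and 0.51 for all genes. The groups did not overlap for 9 copies that were higher and 19 that were lower after hypoxia, where 12.4% and 12.2% of all tested genes showed the same (24.6% in either direction).

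**Figure D1:**
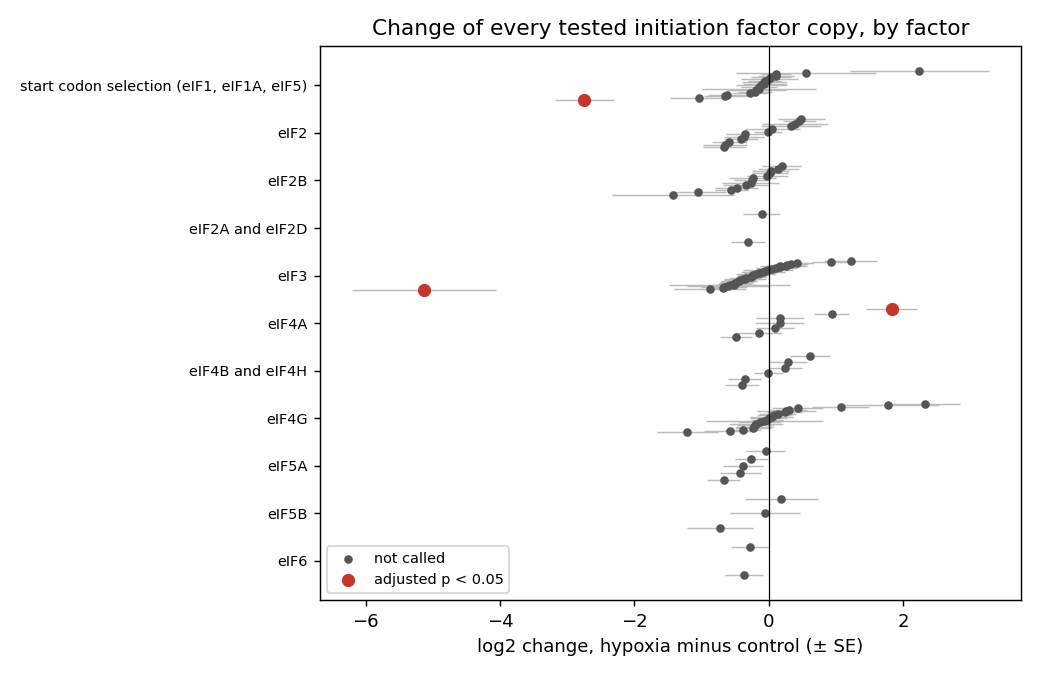
Log2 change (hypoxia minus control, ± SE) of each of the 124 tested copies, grouped by factor and sorted within each group. Red points mark the 3 copies with an adjusted p under 0.05, and 112 of the points lie between -1 and 1.

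The clearest fall was that of a copy of eIF5, the factor that triggers GTP hydrolysis on eIF2. EIF5 113121054 had 23.6, 10.7 and 10.6 normalized counts in hypoxia replicates 1 to 3, against 103, 127 and 74.1 in control replicates 1 to 3. The groups did not overlap, and each control library held at least 3 times the count of the highest hypoxia library. The change was -2.74 ± 0.43 (SE, n = 3 per group, limma adjusted p = 0.014). The call was lost without control replicate 1, hypoxia replicate 2 or hypoxia replicate 3, with adjusted p of 0.057, 0.062 and 0.068.

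A copy of eIF3g, the RNA-binding subunit of eIF3, had the largest change of all copies. The counts of eif3g 113072795 were 8.27, 0.765 and 1.63 after hypoxia, against 249, 19.7 and 360.3 in controls, which came from 7, 1 and 2 reads against 227, 17 and 360 reads. All hypoxia libraries were below all controls, but control replicate 2 lay far under the other controls. The change was -5.14 ± 1.07 (limma adjusted p = 0.046), or -2.56 against control replicate 2 alone and -6.42 against the other controls. Without control replicate 2, the control nearest to the hypoxia libraries, the adjusted p was 0.0032. This fit called 5.76% of all tested genes, and the lower p is no separate result. Without any other library the adjusted p was between 0.091 and 0.18. It was also above the threshold with a pseudocount of 5 (adjusted p = 0.062) and with a minimum mean of 10 (adjusted p = 0.052).

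The copy that rose carries the name of eIF4A-II, a form of the helicase that unwinds messenger leaders. EIF4A2 113046016 stood at 1343, 519 and 601 after hypoxia, against 182, 296 and 172 in controls. The groups did not overlap, and hypoxia replicate 1 was more than 2 times higher than the other hypoxia libraries. The change was 1.83 ± 0.39 (limma adjusted p = 0.048). The call was kept without control replicate 2 (adjusted p = 0.028) and lost without each other library, with adjusted p of 0.08 to 0.17. It was also lost by edgeR's quasi-likelihood test (adjusted p = 0.06) and, at adjusted p of 0.0504 to 0.0536, with TMM rescaling, a pseudocount of 0.5 or 5 and a minimum mean of 10.

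The next smallest p belonged to a copy of the scaffold eIF4G, which holds the helicase and the cap-binding protein together. EIF4G1 113050998 had 142, 117 and 87.1 normalized counts after hypoxia, against 16.5, 50.9 and 12 in controls. Every hypoxia library was above every control, with a difference of 2.32 ± 0.52 that did not pass (limma adjusted p = 0.058). Without control replicate 2 it passed (adjusted p = 0.0049), in a fit that called 5.76% of all tested genes, against 2.24% in the main fit. That library was the control nearest to the hypoxia libraries, so this call is no separate result. Without any other library the adjusted p of this copy was 0.13 to 0.22. In the reference gene table its direct neighbour is another copy of the same name, EIF4G1 113050997, which had 344, 285 and 168 after hypoxia against 225, 86.7 and 89.1 in controls (1.07 ± 0.42, limma adjusted p = 0.22). The neighbour was higher on average too, but its groups overlapped through control replicate 1.

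**Figure D2:**
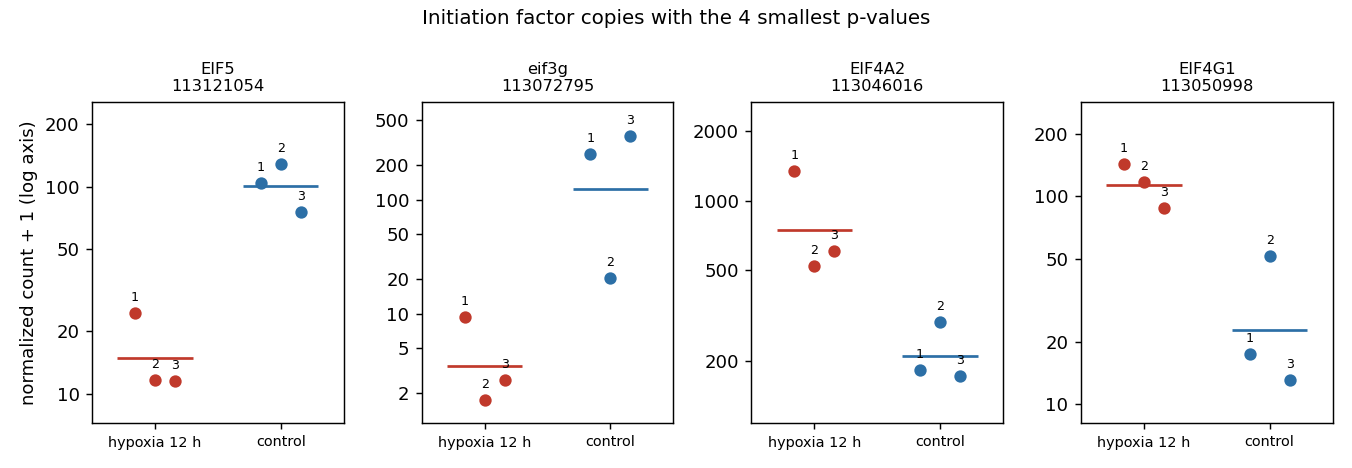
Normalized count plus 1 (log axis) in each hypoxia and control library for the 4 copies with the smallest p; numbers beside the points are replicate numbers and lines are means of the log values. EIF5 113121054 and eif3g 113072795 are lower in all 3 hypoxia libraries, and EIF4A2 113046016 and EIF4G1 113050998 are higher in all 3.

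Apart from the eIF5 copy that fell, no factor of start codon selection passed the test. This group holds 19 copies of eIF1, eIF1A, eIF5 and the eIF1A-like protein eif1ad, which was placed here by its name alone. Of these 6 were above 0 and 13 below, with a median change of -0.11. All 7 rows of eIF1, which keeps the scanning complex open until a start codon is reached, carry the name of the form eIF1B. The most counted of them, EIF1B 113119811, had 7622, 4135 and 5991 after hypoxia, against 5666, 7016 and 5441 in controls (-0.07 ± 0.34, limma adjusted p = 0.94). The most counted eIF5 copy, Eif5 113057196, had 2694, 1862 and 2511, against 1762, 2418 and 2376 in controls (0.10 ± 0.27, limma adjusted p = 0.87). Their ranges overlapped, unlike those of the copy of eIF5 that fell. The totals of the eIF1B copies were 10292, 6040.1 and 8517 after hypoxia against 7329, 10395 and 7189 in controls, and those of the eIF1A copies, the tRNA-positioning partner of eIF1, were 2230.5, 1586 and 2201 against 3108, 2074 and 3838. Both sets overlapped between the groups. The remaining eIF5 copies, EIF5 113037760, Eif5 113063229 and EIF5 113112968, had log2 differences of 0.01, -0.06 and -0.21. The reference lists Eif5 113063229 as a pseudogene.

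None of the 12 copies of the eIF2 subunits passed, over a range of -0.67 to 0.49. The alpha subunit carries the serine that stress kinases phosphorylate, and its 6 copies summed to 1377.5, 1091 and 1582 after hypoxia, against 1295, 1416 and 1804 in controls. The ranges overlapped. The gamma subunit eif2s3, which binds GTP and the tRNA, summed to 2668, 1774 and 2568 against 2631, 3388 and 3797 in controls (-0.49 ± 0.25, limma adjusted p = 0.29), with overlap through control replicate 1. The copy with the smallest p encodes the beta subunit, EIF2S2 113105088, at 119, 138 and 101 after hypoxia against 211, 162 and 166 in controls (-0.59 ± 0.26, limma adjusted p = 0.26). The more counted EIF2S2 113107326 had 2202, 1457 and 2879 against 3672, 2687 and 3739 in controls (-0.67 ± 0.32, limma adjusted p = 0.31). The first of these had groups that did not overlap, and the other overlapped between hypoxia replicate 3 and control replicate 2.

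The 5 subunits of eIF2B, the exchange factor that recharges eIF2, were present in 13 copies with a median change of -0.25, and 0 passed. The alpha subunit copy EIF2B1 113094286 had the smallest p, with 195, 68.8 and 192 after hypoxia against 302, 221 and 347 in controls (-1.05 ± 0.41, limma adjusted p = 0.22). The second copy, EIF2B1 113085077, named here after its values were seen, had 163, 158 and 207 against 249, 227 and 302 in controls (-0.56 ± 0.24, limma adjusted p = 0.26). In both copies every hypoxia library was below every control, as for 12.2% of all tested genes, and neither passed. The most counted eIF2B copy, EIF2B3 113038250, had 346, 237 and 522 against 311, 373 and 385 in controls (-0.02 ± 0.31, limma adjusted p = 0.98). Outside the canonical route, eIF2A and eIF2D, which can deliver the initiator tRNA to some messengers, were each present as a single copy. The change was -0.10 ± 0.28 for eif2a 113061428 (limma adjusted p = 0.87) and -0.32 ± 0.25 for EIF2D 113070726 (limma adjusted p = 0.54), and both overlapped between the groups.

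The scaffold eIF3 was represented by 13 subunits in 36 copies, of which 34 were tested, 10 above 0 and 24 below, with a median of -0.24. The largest subunits of its core, eIF3a and eIF3c, were above 0 when copies were summed. The 3 copies of eif3a together had 4534, 4000.2 and 3836 after hypoxia, against 3010.1, 3285 and 3237 in controls (0.37 ± 0.19, limma adjusted p = 0.31 in the table summed by name), and all hypoxia libraries were higher. One of these copies, eif3a 113071222, named here after its values were seen, had 226, 132 and 186 against 84.6, 104 and 90.1 in controls (0.93 ± 0.28, limma adjusted p = 0.14). The only eif3c row, 113056413, which had the highest count in this group, stood at 3152, 2466 and 3544 against 2212, 2447 and 2883 in controls (0.27 ± 0.27, limma adjusted p = 0.62). The groups overlapped for eif3c. Other core subunits leaned the other way. Summed over 3 copies, eif3k had 658, 526 and 620.1 after hypoxia against 807, 1068 and 1036 in controls (-0.68 ± 0.20, limma adjusted p = 0.11). The core subunit eif3m had 1497, 1388 and 1523 against 1866, 1706 and 2189 in controls (-0.38 ± 0.18, limma adjusted p = 0.28), and eif3e summed over 4 copies differed by -0.35 ± 0.20 (limma adjusted p = 0.34). The subunit eif3i, which binds eIF3b and eIF3g in a module beside the core, had 1965, 1726 and 2222 against 2536, 2744 and 3148 in controls (-0.51 ± 0.20, limma adjusted p = 0.19). For eif3k, eif3m, eif3e and eif3i no hypoxia library reached the lowest control, as for 15.7% of all names summed over copies, and 0 of them passed. The subunits eif3b, eif3d, eif3f, eif3h and eif3j lay between -0.28 and -0.02 when summed, with overlapping groups. The 2 copies that were not tested, eif3hb 113120178 and eif3k 113058834, had a highest count of 1.18 and 3.47 in any library.

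The helicase eIF4A had 7 copies, with 1 rise and a median of 0.16. The most counted was EIF4A1 113052039, at 4196, 1936 and 2176 after hypoxia against 2323, 1744 and 3117 in controls (0.16 ± 0.37, limma adjusted p = 0.85). Beside the copy of eIF4A-II that rose, EIF4A2 113038437 had 1107, 670.5 and 677 against 417, 440.4 and 391 in controls (0.93 ± 0.26, limma adjusted p = 0.11). EIF4A2 113049918 had 1019.5, 674 and 985 against 1223, 1251 and 1224 in controls (-0.49 ± 0.24, limma adjusted p = 0.32). The 3 eIF4A-II copies had groups that did not overlap, with 2 higher and 1 lower after hypoxia, where 12.4% and 12.2% of all tested genes showed the same. Of the RNA-binding partners eIF4B and eIF4H, Eif4b 113092482 had the smallest p, with 92.1, 84.1 and 80.6 against 54.9, 69.4 and 45 in controls (0.61 ± 0.30, limma adjusted p = 0.31). The most counted, EIF4B 113094078, differed by -0.36 ± 0.25 (limma adjusted p = 0.47). The scaffold eIF4G had 21 copies, 10 above 0 and 11 below, with 0 called and a median of -0.0036. The totals of eif4g1, eif4g2 and eif4g3 differed by 0.04 ± 0.24, -0.05 ± 0.24 and -0.03 ± 0.20. EIF4G2 113061512, which had the highest mean count among them, lacks the part that binds the cap-binding protein in mammals and had 2059, 1236 and 1610 after hypoxia against 1694, 1778 and 2081 in controls (-0.20 ± 0.27, limma adjusted p = 0.72). The groups overlapped for EIF4G2 113061512. The eIF4G copy with the lowest estimate, EIF4G3 113068387, also named after its values were seen, had 26, 37.5 and 40.7 against 74.7, 46.2 and 149 in controls (-1.21 ± 0.46, limma adjusted p = 0.21). All its hypoxia values were below all controls, the nearest being control replicate 2.

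The 5 copies of eIF5A, the hypusine-carrying protein that helps ribosomes through difficult peptide bonds, were all below 0, from -0.67 to -0.05, and 0 passed. Of all initiation factor copies tested 35.5% were above 0, and of all tested genes 50.2%. EIF5A 113045927, which the reference names eif5a2, had 736, 534 and 803 after hypoxia against 993, 1028 and 1255 in controls (-0.67 ± 0.25, limma adjusted p = 0.20). EIF5A 113066161, the most counted, had 6181, 4358 and 5801 against 6861, 6719 and 8153 in controls (-0.42 ± 0.31, limma adjusted p = 0.50). In both the groups did not overlap, with lower values after hypoxia, as for 12.2% of all tested genes. Among the products summed over copies, the ribosome-joining GTPase eIF5B varied most between libraries of the same group (SE 0.52). Some single copies of other factors varied more. Its 3 copies together had 2500, 1345 and 5059 after hypoxia against 2022, 1831 and 4777 in controls, so that replicate 3 was the highest in each group. The estimate for EIF5B 113064869 was 0.19 ± 0.54 (limma adjusted p = 0.88) and that for EIF5B 113073991 was -0.72 ± 0.49 (limma adjusted p = 0.47). The 2 copies of eIF6, which keeps the ribosomal subunits apart, together had 919, 545 and 769.8 after hypoxia against 809, 780.2 and 1197 in controls, and the groups overlapped. Singly they differed by -0.37 ± 0.29 (eif6 113050232) and -0.28 ± 0.28 (eif6 113103498), with limma adjusted p of 0.52 and 0.63.

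Summing copies asks whether the total of reads under a product's name differed, whichever copy they were given to. The sums include rows that the reference lists as pseudogenes, and Eif1a 113091432, listed as a lncRNA. The pseudogene EIF4G3 113114688 held on average 49.6% of the eif4g3 reads after hypoxia and 49.7% in controls. The pseudogene EIF2B4 113121112 held 24.6% and 24.2% of the eif2b4 reads, and Eif4g1 113058812 held 19.5% and 15.6% of those of eif4g1. All rows of the table were added up by name, ignoring case and the copy letter that some fish names carry, and the 13375 names with a mean of at least 1 were fitted anew. This gave 37 initiation factor products, 32 of them with more than 1 copy and eif4g1 with 10. None rose and none fell in limma, where 2.76% of all names passed (2.15% rose and 0.613% fell). With edgeR 0 passed and with DESeq2 1, the fall of eif3k (DESeq2 adjusted p = 0.048). The share of all names that passed with edgeR or DESeq2 is not given here. In limma 3 products had an unadjusted p under 0.05, against 21.2% of all names. Changes ran from -0.77 for eif2b1 to 0.39 for eif4a2, with 7 products above 0, 30 below and a median of -0.13, against -0.04 over all names. The share of all names above 0 is not given here, so the split of 7 and 30 has no background of its own. The 95% interval of the change lay within -1 and 1, that is within a 2-fold difference, for 30 of the 37 products. It reached past that for eif2b1, eif3k, eif1a, eif2s2, eif2s3 and eif2b4 on the lower side, and for eif5b on both sides (-1.23 to 1.19). The groups did not overlap for 1 product that was higher, eif3a, and 6 that were lower, where 12.7% and 15.7% of all names showed the same.

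**Figure D3:**
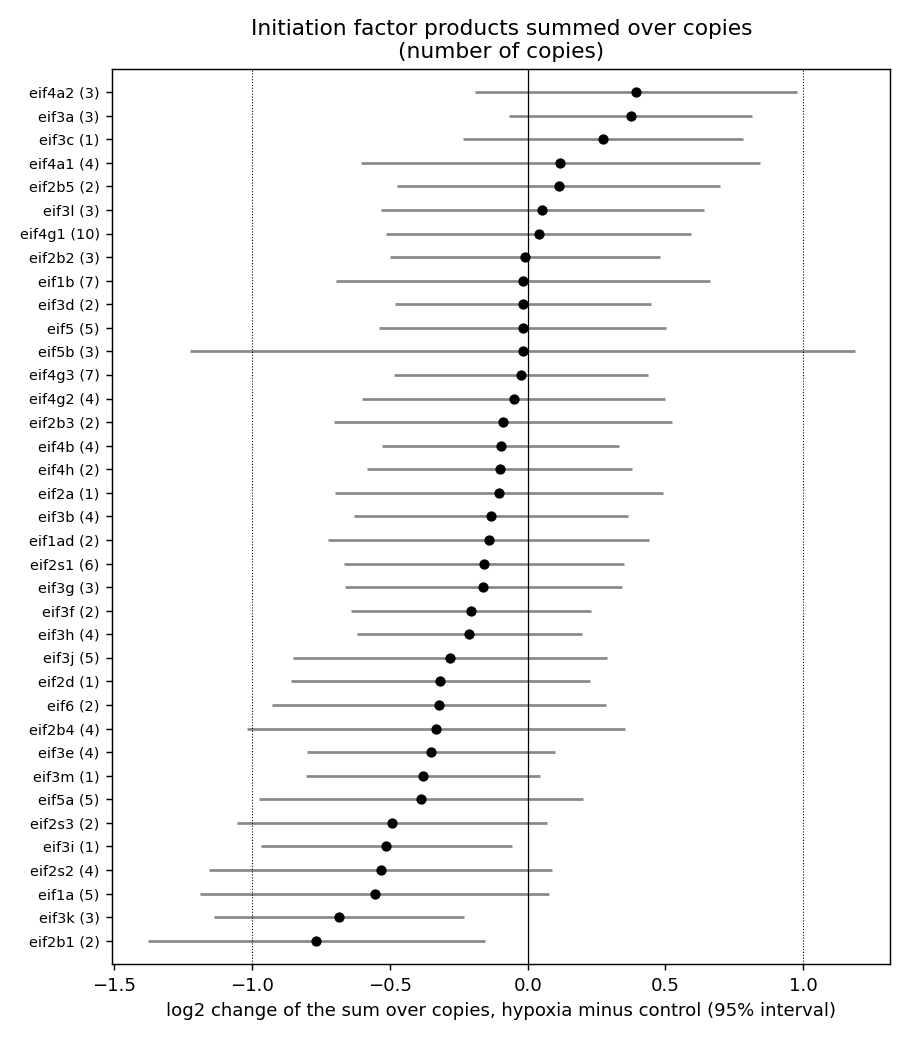
Log2 change of each of the 37 products summed over copies (hypoxia minus control), with its 95% interval; the number of copies follows each name and dotted lines mark a 2-fold difference. The points run from -0.77 (eif2b1) to 0.39 (eif4a2), and 30 intervals stay between the dotted lines.

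All members added together came to 92769, 63847 and 85649.7 normalized counts after hypoxia, against 79996, 85809 and 97364 in controls. The groups overlapped, with a log2 ratio of means of -0.12 and an exact two-sided permutation p of 0.6, where 0.1 is the smallest p that 3 against 3 libraries can give. The result depended on the scaling. With quantile normalization the log2 ratio was -0.17 and the permutation p was 0.1, and with TMM rescaling they were -0.14 and 0.6. The sum was 0.462% to 0.48% of all normalized counts after hypoxia and 0.423% to 0.58% in controls.

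The 3 products with a called copy were chosen by that call, so a shifted share of the called copy itself is no separate result. Shares within a product are parts of a whole, so those of its other copies move with it. Their shifts are no separate result either. In eif3g and eif4a2 the hypoxia libraries divided their reads among the copies otherwise than at least 2 of the 3 controls did. No total of the 3 products passed the test. The shares are given as descriptions with no test, and reads of near-identical copies may have been assigned to either. In eif3g, the copy 113072795 held 0.561%, 0.07% and 0.104% of the product's reads after hypoxia, against 19.5%, 1.16% and 22.3% in controls. The copy 113095421 held 69.4%, 69.5% and 72% after hypoxia, against 46.6%, 70.9% and 44.3% in controls, and copy 113042389 stayed between 27.9% and 33.8% in all 6 libraries. Control replicate 2 divided its eif3g reads much as the hypoxia libraries did. The eif3g totals were 1474, 1092 and 1560 after hypoxia against 1277, 1699 and 1617 in controls (-0.16 ± 0.22, limma adjusted p = 0.71).

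In eif5 the copy that fell held at most 0.591% of the product's reads in any hypoxia library and 3.51%, 3.66% and 1.83% in controls, while Eif5 113057196 held 58.8% to 72% throughout. The shares of all other eif5 copies overlapped between the groups. The eif5 total differed by -0.02 ± 0.23 (limma adjusted p = 0.97). In eif4a2 the division differed between the groups with no overlap. EIF4A2 113049918 held 29.4%, 36.2% and 43.5% after hypoxia against 67.1%, 62.9% and 68.5% in controls. The copy that rose, 113046016, held 38.7%, 27.9% and 26.5% against 10%, 14.9% and 9.63%, and copy 113038437 held 31.9%, 36% and 29.9% against 22.9%, 22.2% and 21.9%. The eif4a2 total was 2532 ± 836 after hypoxia and 1866 ± 107 in controls (SD, n = 3 each), a difference of 0.39 ± 0.25 (limma adjusted p = 0.41).

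**Figure D4:**
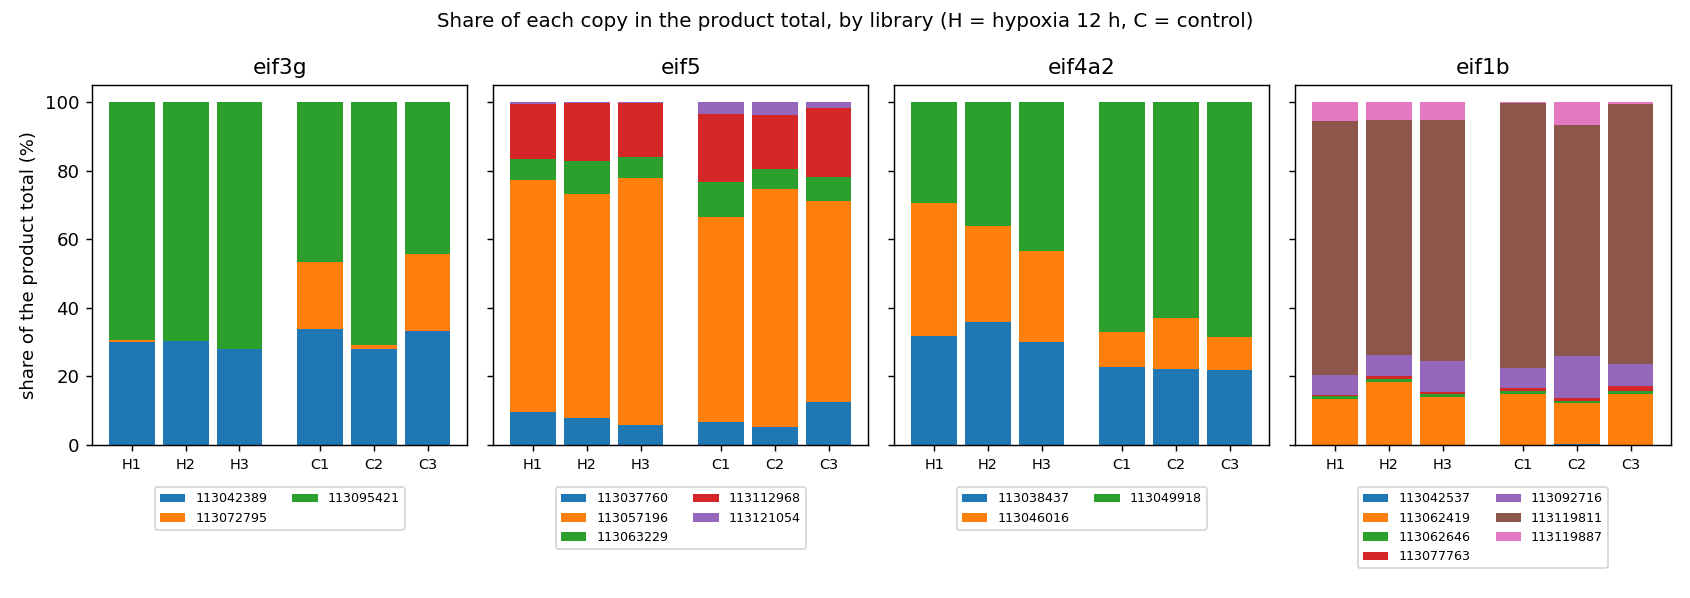
Share of each copy in the reads of its product (%, stacked bars) for eif3g, eif5, eif4a2 and eif1b in each hypoxia library (H1 to H3) and control library (C1 to C3). Copy 113072795 of eif3g fills at most 0.561% of a hypoxia bar and 19.5%, 1.16% and 22.3% of the control bars, and copy 113049918 of eif4a2 fills at most 43.5% of a hypoxia bar and at least 62.9% of a control bar.

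In several copies, control replicate 2 stood apart from the other controls and on the side of the hypoxia libraries. A copy was counted when that library and all hypoxia libraries differed at least 2-fold in the same direction from both other controls, after adding 1. This held for 7 of 124 copies (5.65%), against 5.71% of all tested genes. It held for 0 copies when control replicate 1 or 3 took that place, against 1.72% and 1.13% of all genes. The share among the initiation factors was thus near that of the whole table. The copies named next were chosen after their values were seen.

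EIF1B 113119887 had 573, 313 and 436 normalized counts after hypoxia, against 20.9, 682 and 49 in controls. EIF3B 113092150 had 254, 139.9 and 213 after hypoxia, against 547, 138 and 632 in controls, and eif1a 113042429 had 204, 129 and 221 against 586, 184 and 474. The first of these held 5.57%, 5.18% and 5.12% of the eif1b reads after hypoxia, against 0.285%, 6.56% and 0.682% in controls. In all 3 copies control replicate 2 lay within or just beyond the range of the hypoxia libraries. The low copy eif2b2 113097324 had 5.91, 5.35 and 3.25 against 28.6, 2.31 and 36, and Eif4g1 113082884 had 6, 4 and 2 reads after hypoxia against 0, 1 and 0 reads in controls. With all libraries 0 of these 5 passed, at changes of 2.24, -0.88, -1.04, -1.43 and 1.77 in the order given and limma adjusted p of 0.29, 0.41, 0.24, 0.43 and 0.25. Leaving out control replicate 2 separates the groups in the copies chosen for its place, so their calls without it are no separate result. Without control replicate 2, 4 copies were higher and 5 lower at an adjusted p under 0.05, against 5.76% of all genes. Those 9 were the 3 called copies, EIF4G1 113050998, EIF1B 113119887, EIF3B 113092150, eif1a 113042429, eif2b2 113097324 and eif3l 113092338. The last of these, a copy of the core subunit eIF3l, had 378, 499 and 652 after hypoxia against 119.8, 355 and 227 in controls (1.22 ± 0.39 with all libraries, limma adjusted p = 0.16). It held 40.6% to 51.4% of the eif3l reads after hypoxia and 15.8% to 26.1% in controls, while the eif3l total differed by 0.05 ± 0.26 (limma adjusted p = 0.93).

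**Figure D5:**
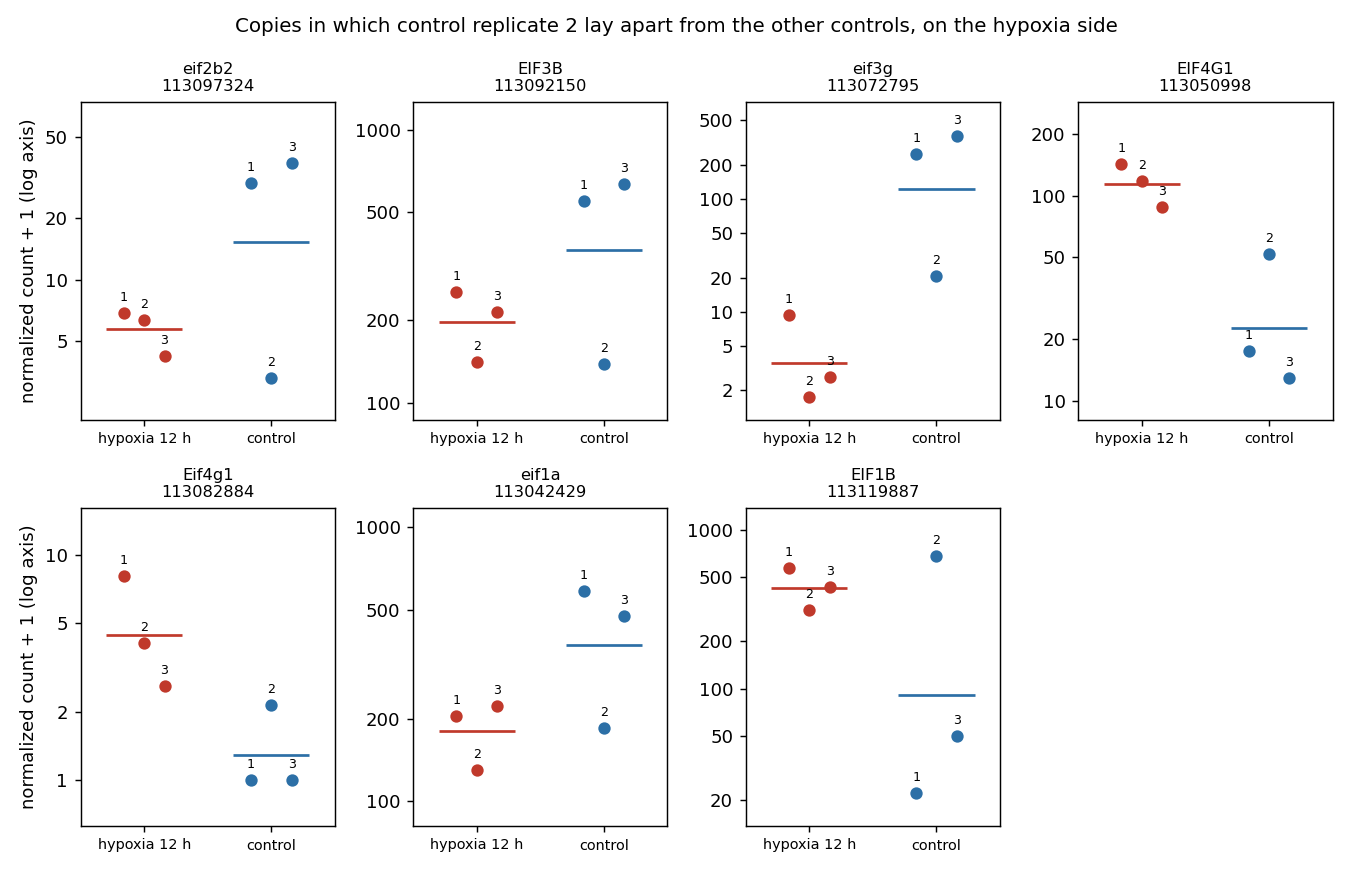
Normalized count plus 1 (log axis) by library for the 7 copies in which control replicate 2 and all hypoxia libraries lay at least 2-fold from both other controls; numbers are replicate numbers and lines are means of the log values. In EIF1B 113119887 control replicate 2 (682) is above all 3 hypoxia libraries, whereas controls 1 and 3 are at 20.9 and 49.

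Of 129 other genes of protein synthesis 127 were tested, and most did not pass: 6 rose and 0 fell, against the background of 1.83% and 0.417% given above, with a median change of -0.05. Of 44 genes of cap binding and its control 4 rose (list median 0.05), with values above all controls in each hypoxia library. They were the eIF4E kinase mknk2 113069921 (4.67 ± 0.33, limma adjusted p = 0.00024) and mknk2 113107242 (4.74 ± 0.34, limma adjusted p = 0.00025), the eIF4E-binding inhibitor eif4ebp3l 113057673 (3.81 ± 0.47, limma adjusted p = 0.0043) and the eIF4A inhibitor Pdcd4 113039872 (2.16 ± 0.28, limma adjusted p = 0.0058). The other mknk2 copies, 113116047, 113040431 and 113045817, were at -0.66, 0.22 and 0.30 with overlapping groups. The other eif4ebp3l copies were all above 0, from 0.40 to 2.91, and did not pass (limma adjusted p of 0.14 to 0.68). Pdcd4 113039872 had 171, 134 and 159 after hypoxia against 33, 30.1 and 38 in controls, whereas the other Pdcd4 copies, 113108561, 113044446, 113108111 and 113065079, were at -0.73, -0.30, -0.13 and 0.05 with overlapping groups. Among 14 eIF2 kinases and phosphatase subunits 1 passed (list median 0.03). The copy PPP1R15B 113061641, which directs a phosphatase to the alpha subunit of eIF2, rose to 3572 ± 1468, against 390.2 ± 231 in controls (SD, n = 3 each, change 3.29 ± 0.52, limma adjusted p = 0.014). Its other copies did not follow it. PPP1R15B 113055214 had 436, 437 and 502 after hypoxia against 655, 783 and 605 in controls (-0.56 ± 0.22, limma adjusted p = 0.22), and 113111207 had 439, 424 and 589 against 651, 817 and 675 (-0.57 ± 0.24, limma adjusted p = 0.24). In both every hypoxia library was below every control, as for 12.2% of all tested genes, and the low copy 113118490 was at -0.16 with overlap. Among 39 tested genes of elongation and termination 1 rose (list median -0.05), EEF2K 113056313, the kinase that inhibits elongation factor eEF2, at 939, 1070.4 and 1000.1 against 417, 464 and 210.2 in controls (1.54 ± 0.31, limma adjusted p = 0.043), while Eef2k 113111911 was at 0.01 ± 0.34 (limma adjusted p = 0.99). Leaving out 1 library ended the call of EEF2K in 5 of 6 fits (adjusted p up to 0.15), that of PPP1R15B in 2 (up to 0.087) and that of Pdcd4 in 1 (up to 0.051). Of 28 helicases and accessory factors and 2 hypusine enzymes 0 were called.

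The named genes whose pattern over the 6 libraries was most like that of EIF5 113121054 were Nlrp12 113048869, SERPINB1 113068785, mpv17l 113116250, dlc 113045314 and apip 113051341. Pearson correlations of log2 values were between 0.989 and 0.997, over libraries that share 2 groups. Of these genes dlc fell (-1.17 ± 0.24, limma adjusted p = 0.045), and the others, at -0.81 to -0.42, did not pass.

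In the authors' deposited table, 5 of the 126 copies had an adjusted p under 0.05, 3 higher and 2 lower, where 5.49% of all rows did. According to the authors' deposited table these were EIF5 113121054 (log2 fold change -2.79), eif3g 113072795 (-5.98), EIF4A2 113046016 (1.92), EIF4G1 113050998 (2.13) and EIF4A2 113038437 (0.97). The first 3 are the copies called here. For EIF2S2 113105088, EIF2B1 113094286 and eif2b2 113097324 the deposited log2 fold changes, -0.590, -0.936 and -2.218, were also those of DESeq2 on the recovered reads. The authors' calls and those of DESeq2 here are therefore not separate support.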

How the data were processed

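RNA-seq of liver was measured in 3 hypoxia and 3 control libraries, grouped by their titles. The submitters' processing notes name TopHat2 2.1.1 and Bowtie2 2.2.8, and the sources used here do not name the counter, the build or the annotation. In each library 100% of the deposited signal values were whole reads once divided by the library's step (tolerance 0.01 read), so the authors divided read counts by a size factor (0.846 to 1.31) and not by gene length, whatever the table's name. The authors also deposited log2 fold changes and p-values, and the sources do not name their test. All 126 members matched the NCBI identifiers of the goldfish assembly ASM336829v1, used for gene types, symbols and neighbours, which lists 6 as pseudogenes. It gives 30 members a named symbol. The others, among them the 3 called copies, have only a symbol built from the identifier. Their identity here rests on the deposited gene name.

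The test was limma 3.58.1 (R 4.3.3) with a mean-variance trend on log2(value + 1) for genes with a mean of at least 1. It was tested on simulated data, in which the planted changes were larger than those of most copies and low genes were left unchanged. That trial therefore does not cover changes as small as those of most copies. Alternatives were edgeR 4.0.16 and, on the same recovered reads, DESeq2 1.42.0, other scalings, pseudocounts and filters, and leaving out each library. Copies are named if called, if their product has a called copy, or if they have the smallest p or highest mean of their factor group. The comparisons with control replicate 2 alone and with the other controls were chosen after seeing the data. Members and lists were chosen with earlier results of these data known. How reads shared by near-identical copies were counted is not known.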

Additional observations from a re-analysis of the deposited data

How the results depend on the processing

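The 3 called copies became 5 with DESeq2, 1 with a pseudocount of 5 and 1 with a minimum mean of 10. The main fit called 2.24% of all tested genes. The share of all genes called under these other settings is not given here, so their counts have no background beside them. Leaving out a library gave 0 to 9, with 9 only without control replicate 2, where 5.76% of all tested genes were called. The labels do not say whether same-numbered libraries are pairs. Their deviations from the group means correlated at -0.07, -0.19 and -0.03, which cannot decide it with 3 libraries per group. With a replicate block the count was 1, and the adjusted p was 0.052 for EIF5 113121054 and 0.12 for EIF4A2 113046016. The count of 0 summed products was 1 with DESeq2 and 0 in every other setting run, the replicate block included. The 6 called genes of the surrounding lists came to 3 to 7 when a library was left out, with 3 only without hypoxia replicate 1. The log2 ratio of the summed members lay between -0.23 and 0.0242 when a library was left out, above 0 only without hypoxia replicate 2.

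Of the results under planned settings, 469 on single named copies kept direction and side of the threshold, 22 lost the call, 8 gained it and 25 changed sign, all of these in copies that were not called and differed by less than 0.2. EIF5 113037760 was at -0.12 with edgeR, -0.10 with DESeq2, -0.0112 with TMM and -0.0802 with quantile normalization, and EIF2B3 113038250 at 0.0234 with edgeR and 0.0465 with DESeq2. The other changes of sign came from leaving out a library, which gave ranges of -0.27 to 0.48 for EIF5 113037760, -0.31 to 0.26 for EIF2B3 113038250, -0.29 to 0.0811 for eif2a 113061428, -0.18 to 0.38 for EIF4A1 113052039, -0.45 to 0.66 for EIF5B 113064869, -0.27 to 0.17 for EIF1B 113119811, -0.0431 to 0.27 for Eif5 113057196 and -0.23 to 0.0446 for Eif5 113063229. The causes were not tested. A sum by name stays the same if reads move between its copies. It does not if reads are dropped or go to another name. Neither was tested here.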
